A study of Mus musculus with 16 samples.

Results

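The genes described here encode the COPII coat, and 10 members were chosen by name: Sec23a, its paralogue Sec23b, the 4 Sec24 genes, Sec13, Sec31a and both Sar1 genes. All 10 were measured among 18993 genes tested, through 16 kept probes of the 17 that the array carries for them. The cells were 4TO7, a mouse mammary carcinoma line. RNA was taken from cells overexpressing miRNA Cluster 1, with a Puro vector as control, Cluster 2, with a Hygro vector, Clusters 1+2, with Hygro and Puro vectors, or CDH1 (E-cadherin), with a separate Puro vector. All groups therefore carried retroviral pMSCV vectors with a puromycin or hygromycin marker, and each group had 2 biological repeats, A and B, by the series' design. The labels do not say whether the repeats came from separate infections, nor which genomic miR-200 cluster is meant by Cluster 1 and by Cluster 2. Every sample was hybridised with a universal mouse reference RNA, so each value is a log2 ratio of sample over reference. The sample carried Cy3 in Cluster 2, Clusters 1+2 and their controls (slides 1 and 2) and Cy5 in the CDH1 set (slide 3) and the Cluster 1 set (slide 4). Each overexpression group was set against its own vector on the same slides. Differences between effects from other dye sets, and comparisons with the other Puro vector, cross slides, as is said beside them.

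COPII vesicles carry newly made proteins out of the endoplasmic reticulum. The small GTPases Sar1a and Sar1b start the coat, Sec23 and Sec24 form its inner layer, in which Sec24 proteins bind cargo and Sec23 stimulates GTP hydrolysis by Sar1, and Sec13 with Sec31 builds the outer cage. SEC23A and SEC23B share this role, and Sec23a has been reported as a direct target of the miR-200 family, which also represses the transcription factors Zeb1 and Zeb2 and is known for keeping epithelial cells epithelial.

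The 5 mature 3p miRNAs of the family are shown because the family's clusters, to which the overexpressed ones belong, encode them. The sequences are RefSeq's (GRCm38.p6), and capitals mark the seed, bases 2 to 8. miR-200b, miR-200c and miR-429 share the seed AAUACUG, and miR-200a and miR-141 share AACACUG.
mmu-miR-200b-3p: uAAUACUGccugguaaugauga
mmu-miR-200c-3p: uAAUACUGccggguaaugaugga
mmu-miR-429-3p: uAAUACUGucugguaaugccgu
mmu-miR-200a-3p: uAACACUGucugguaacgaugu
mmu-miR-141-3p: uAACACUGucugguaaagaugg
The miR-200b, miR-200a and miR-429 genes lie together on chromosome 4 and the miR-200c and miR-141 genes on chromosome 6. The miRNAs themselves were not measured on these arrays.

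Sec23a and Sec23b were each read by 2 probes of 60 bases, and the dimmer of each pair is printed.
Sec23a probe A_51_P228722: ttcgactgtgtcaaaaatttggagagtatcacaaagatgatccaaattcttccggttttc
Sec23b probe A_51_P371120: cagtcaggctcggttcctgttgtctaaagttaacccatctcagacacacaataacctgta
The brighter Sec23a probe, A_52_P72839, stands for the gene throughout and lies at chr12:56894362-56894421 (mm7, minus strand, as the array design gives it). The brighter Sec23b probe, A_52_P387818, lies at chr2:144331310-144331369 (mm7, plus strand). Neither Sec23a probe shared more than 8 identical bases in a row with a probe of another member. Probes were compared only with each other, so this does not show that the paralogues were told apart. Binding of a probe to another member's transcript was not tested. No annotation of that build was at hand, so exon or UTR positions are not given.

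The labels were checked on the overexpressed gene and on markers. Cdh1 had log2 ratios of 0.57 and 0.77 in CDH1 cells, against 0.03 and 0.09 in their Puro vector cells. Its log2 fold change was 0.61 (adjusted p = 0.00565, limma). Whether its probe lies inside the introduced sequence is not known here. Cdh1 rose more in the miRNA comparisons, by 1.21 with Cluster 1, 1.93 with Cluster 2 and 2.86 with Clusters 1+2. A rise of Cdh1 therefore does not single out the CDH1 label. The epithelial markers Krt8 and Krt18 and the mesenchymal markers Vim, Fn1, Zeb2, Col1a1 and Col1a2 were above background on all 16 arrays. So were the T cell gene Cd3e and the adipocyte gene Fabp4, so the scanner software's mark alone does not show expression. Of 6 epithelial markers, Cdh1 among them, 5 rose with Cluster 1, 5 with Cluster 2 and 6 with Clusters 1+2. With CDH1, 1 rose, the overexpressed Cdh1 itself, and 1 fell. Cdh1 is also in the epithelial means below. Of 7 mesenchymal markers, 1 fell in each comparison except Clusters 1+2, where 2 fell. Of all genes, 8.24% were called with Cluster 1, 2.85% with Cluster 2, 24.9% with Clusters 1+2 and 14.5% with CDH1, in either direction. The mean log2 ratio of the 6 epithelial markers was 1.05 and 1.04 in Clusters 1+2 cells against -1.11 and -1.11 in Hygro and Puro vector cells, and 0.14 and 0.18 in Cluster 2 cells against -1.55 and -1.42 in Hygro vector cells. It was 0.40 and 0.32 in Cluster 1 cells against -1.06 and -1.26 in their Puro vector cells, and -1.17 and -1.22 in CDH1 cells against -1.09 and -1.03 in their Puro vector cells. None of the 6 immune or 4 endothelial markers passed the test in any of the 4 comparisons, and of 3 adipocyte markers 1 fell with Cluster 2, 1 fell with Clusters 1+2 and 1 rose with CDH1. The part of this wider epithelial shift in the changes below was not tested. The share of spots well above background ran from 31.2% to 69.3% per array and was lower on slide 2 than on slide 1 in every Cy3 group. In bulk RNA, fewer cells with a transcript and less of it per cell cannot be told apart.

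Sec23a fell in cells with both clusters. Its log2 ratios were -1.33 and -1.14 in Clusters 1+2 cells, against -0.12 and 0.07 in Hygro and Puro vector cells. Both Clusters 1+2 arrays lay far below both vector arrays, and no other Cy3 array came near them. The net signal in scanner units (spot mean minus local background) was 145 and 150 in Clusters 1+2 cells, against 468 and 407 in the vector cells, while the reference channel of the same arrays held 817 and 699, against 895 and 779. The log2 fold change was -1.20, a level 2.3-fold lower (95% interval of the log2 value -1.52 to -0.89, adjusted p = 4.87e-05 over all genes, limma). The slides gave almost the same value on their own, -1.20 on slide 1 and -1.21 on slide 2.

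The second Sec23a probe moved the same way in this comparison. A_51_P228722 had log2 ratios of -0.04 and -0.21 in Clusters 1+2 cells, against 0.60 and 0.67 in Hygro and Puro vector cells, with no overlap. Its log2 fold change was -0.76 (adjusted p = 5e-04 over all probes, limma). It was kept only through the Hygro and Puro vector cells, the only group with both arrays well above background. Its ratios were also highest there, so its fall in this comparison is no independent support. This probe was dim, well above background on 5 of the 16 arrays, with net sample signals of 36 and 33.3 in Clusters 1+2 cells, against 78.9 and 93.4 in the vector cells.

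With Cluster 2 alone, the Sec23a difference was smaller and its call depended on the treatment of the slides. The log2 ratios were -0.26 and -0.25 in Cluster 2 cells, against 0.10 and 0.42 in Hygro vector cells. Both Cluster 2 arrays were lower, and nearly equal, while the Hygro vector arrays lay well apart from each other. The log2 difference was -0.51 (95% interval -0.83 to -0.20, adjusted p = 0.0941, limma), which missed the threshold of 0.05. With the repeat, and so the slide, as a block in the Cy3 groups it passed (adjusted p = 0.0422, limma), and the difference was -0.36 on slide 1 and -0.66 on slide 2. Without Hygro vector repeat A it was -0.67 (adjusted p = 0.0404, limma), and without Hygro vector repeat B -0.35 (adjusted p = 0.558). With median centring it was -0.29 (adjusted p = 0.143, limma), and in a fit of the comparison's own arrays the adjusted p was 0.307. Before normalisation the net sample signals overlapped, at 430 and 324 in Cluster 2 cells against 347 and 401 in Hygro vector cells. The second probe gave -0.19 (adjusted p = 0.535, limma).

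The effect of Clusters 1+2 on Sec23a minus that of Cluster 2 was -0.69 on the log2 scale (SE 0.205, 95% interval -1.14 to -0.25, adjusted p = 0.0702, limma). It was no call here, with 0 of 10 members passing this test of the difference where 6.24% of all genes did, and it passed with the repeat as a block (adjusted p = 0.0336, limma). Without Hygro vector repeat B it was -0.85 (adjusted p = 0.0447, limma). Among the Cy3 groups the order of mean Sec23a log2 ratios was Clusters 1+2 (-1.23 ± 0.134), Cluster 2 (-0.255 ± 0.00707), Hygro and Puro vectors (-0.025 ± 0.134) and Hygro vector (0.26 ± 0.226; SD, n = 2 each). Only the step from Clusters 1+2 to Cluster 2 was several times the spread within these groups. The steps from Cluster 2 to the Hygro and Puro vectors and on to the Hygro vector were of the order of the SDs of the vector groups and were not tested. In the Cy5 sets the means were -0.07 ± 0.0566 for Cluster 1 against -0.05 ± 0.0283 for its Puro vector, and -0.195 ± 0.247 for CDH1 against -0.18 ± 0.269 for its Puro vector (SD, n = 2 each).

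**Figure D1:**
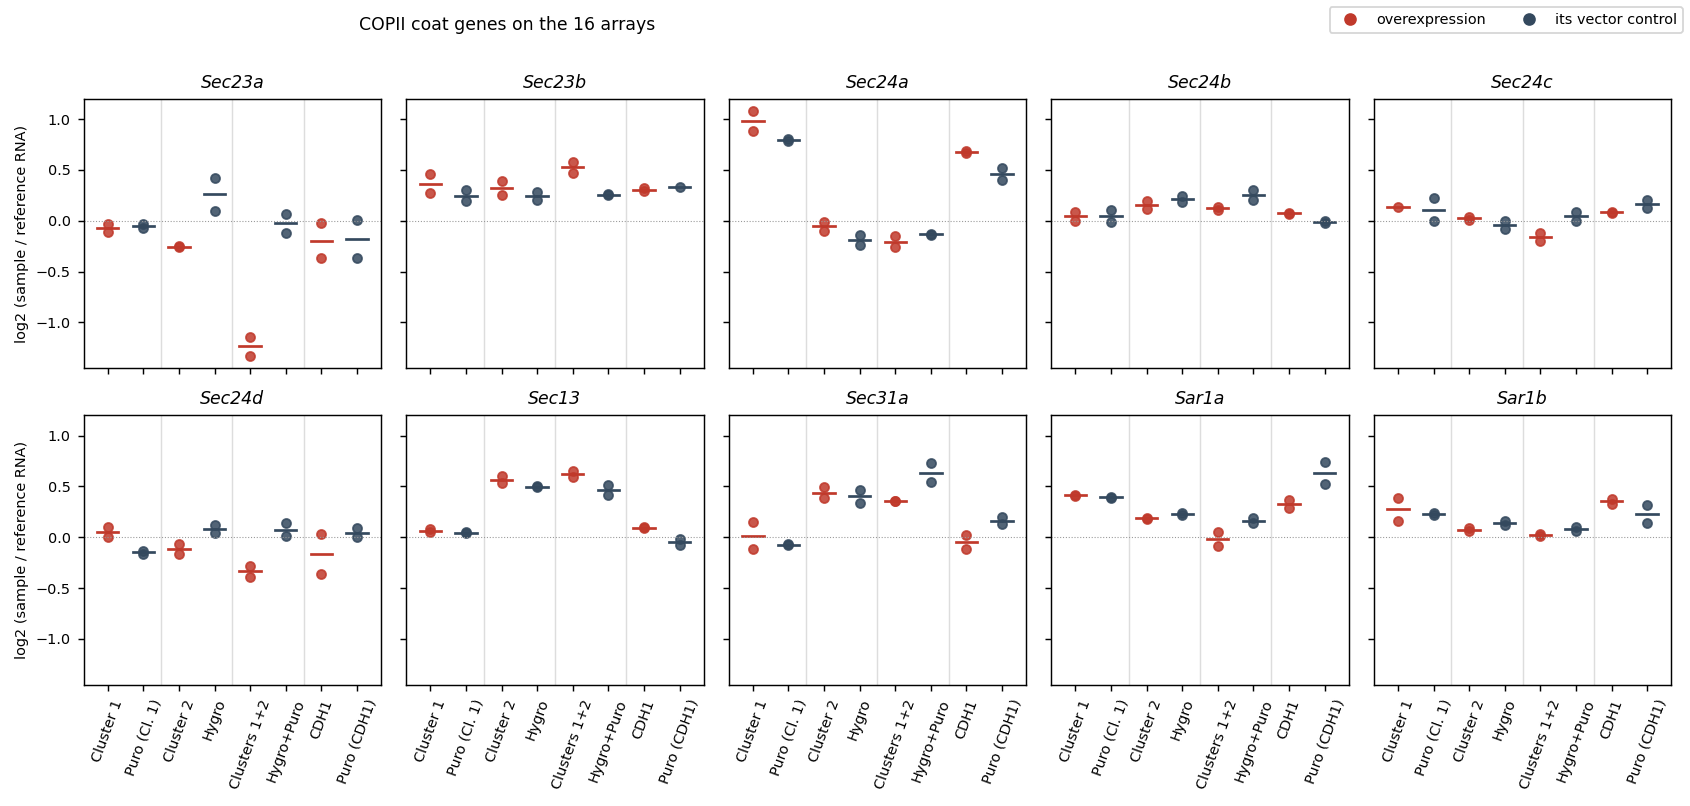
Log2 ratio of sample over reference RNA (vertical axis) for the probe that stands for each of the 10 COPII coat genes, on each of the 16 arrays (points) with the mean of each group (lines). Each overexpression group (red) stands left of its vector control (dark); Sec23a in Clusters 1+2 cells, at -1.33 and -1.14, are the lowest points of the Sec23a panel.

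In the Cluster 1 and CDH1 sets Sec23a was too dim for a small change to be seen. The log2 ratios were -0.11 and -0.03 in Cluster 1 cells, against -0.07 and -0.03 in their Puro vector cells, and the groups overlapped. The difference was -0.03 (95% interval -0.34 to 0.29, adjusted p = 0.962, limma). Net sample signals there were only 11.7 and 19 in Cluster 1 cells, against 26.3 and 41.1 in the Puro vector cells. They lie below the offset of 50 that the background correction adds, which pulls the log2 ratios of dim spots toward 0, so the interval holds for the pulled ratio only. With an offset of 10 in place of 50 the difference was -0.09 (adjusted p = 0.868, limma). The scanner software's processed signals carry no such offset but also differ in background correction and normalisation. With them the difference was 0.58 (adjusted p = 0.464, limma). With the sample channel alone it was -0.30 (adjusted p = 0.189, limma). Cluster 1 repeat A was not well above background. The direction of Sec23a with Cluster 1 was therefore not settled by these arrays.

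For CDH1 the Sec23a log2 ratios were -0.02 and -0.37 in CDH1 cells, against 0.01 and -0.37 in their Puro vector cells. Repeat B was the lower one in both groups, and the groups overlapped. The difference was -0.01 (95% interval -0.33 to 0.30, adjusted p = 0.974, limma). Net sample signals were 64.6 and 87.7 in CDH1 cells, against 47.1 and 74.7 in the Puro vector cells, of which the last was not well above background. The second probe was not well above background on any array of the Cy5 sets and gave no value to rely on there. The effect of Clusters 1+2 on Sec23a minus that of Cluster 1 was -1.18 (adjusted p = 0.00188, limma), and minus that of CDH1 -1.19 (adjusted p = 0.00129, limma); members that passed numbered 2 of 10 (15.7% of all genes) for the difference from Cluster 1 and 1 of 10 (17.7%) for that from CDH1. Both Sec23a differences rest on the compressed ratios of the Cy5 sets, and dye and set cannot be told apart from the overexpressed gene in them.

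**Figure D2:**
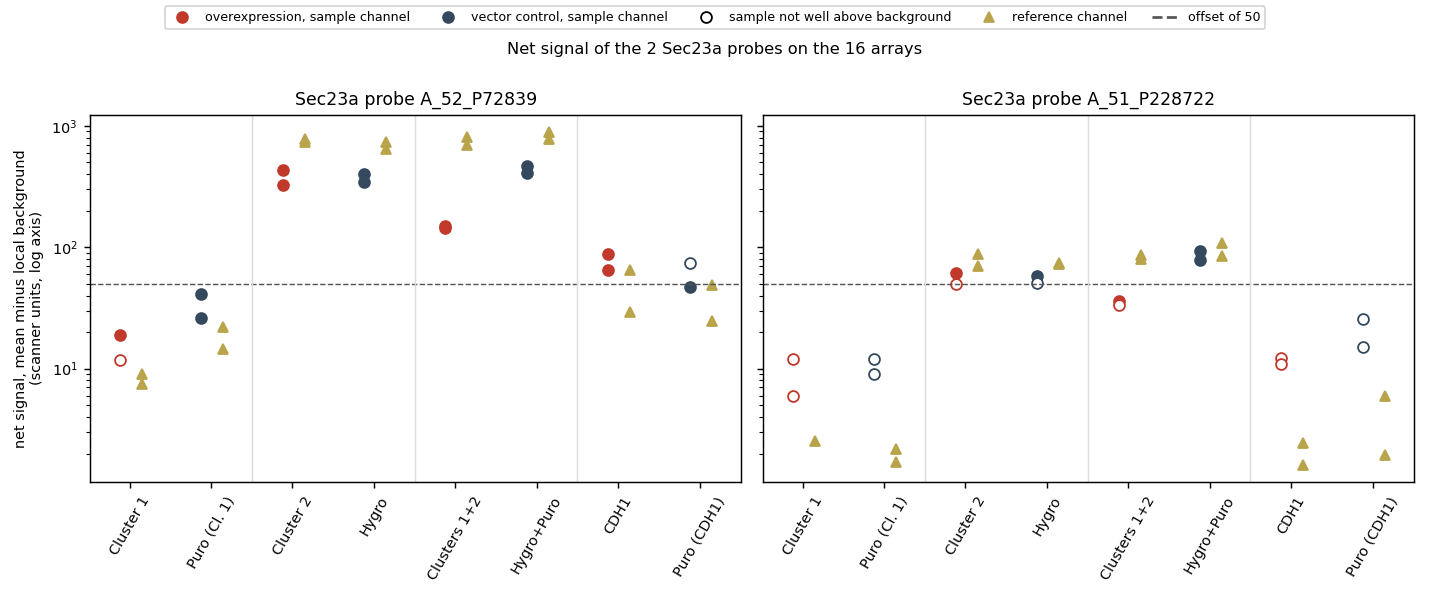
Net signal of both Sec23a probes on each array, in scanner units on a log axis; circles are the sample channel (open where not well above background), triangles the reference channel (1 value below 0 is not drawn), and the dashed line the offset of 50. For A_52_P72839 the Cy3 groups lie between 145 and 468, and the Cluster 1 set lies between 11.7 and 41.1, below the line.

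The paralogue Sec23b passed the test in 1 comparison, and there it was higher. Its log2 ratios were 0.58 and 0.47 in Clusters 1+2 cells, against 0.25 and 0.26 in Hygro and Puro vector cells, so both Clusters 1+2 arrays were the higher ones. The log2 fold change was 0.27 (95% interval 0.09 to 0.46, adjusted p = 0.0349, limma), a rise of 1.21-fold. The second probe, A_51_P371120, gave 0.26 with an adjusted p of 0.0646 (limma, over probes). The call was lost in 13 of 18 alternative settings, among them without Hygro and Puro vectors repeat A (adjusted p = 0.102), without their repeat B (0.115), without Clusters 1+2 repeat A (0.202) and without Clusters 1+2 repeat B (0.0561; limma). In Cluster 2 cells the ratios were 0.25 and 0.39, against 0.28 and 0.20 in Hygro vector cells, and they overlapped (difference 0.08, adjusted p = 0.748, limma). In Cluster 1 cells they were 0.46 and 0.27, against 0.30 and 0.19 in the Puro vector cells, and overlapped too (0.12, adjusted p = 0.502, limma). In CDH1 cells they were 0.29 and 0.32, against 0.33 in the 1 Puro vector array with a value (-0.03, adjusted p = 0.911, limma); the other was removed as an outlier spot. Sec23a minus Sec23b within an array was -1.91 and -1.61 in Clusters 1+2 cells, against -0.38 and -0.19 in the vector cells, so the balance of the paralogues differed by -1.47 on the log2 scale.

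Of the 4 Sec24 genes, which encode the cargo-binding subunits, Sec24d passed the test with Clusters 1+2, and it was lower. Its log2 ratios were -0.39 and -0.28 in Clusters 1+2 cells, against 0.01 and 0.14 in Hygro and Puro vector cells, without overlap. The log2 fold change was -0.41, a level 1.33-fold lower (95% interval -0.65 to -0.17, adjusted p = 0.0143, limma), and it was -0.40 on slide 1 and -0.43 on slide 2. Without Hygro and Puro vectors repeat B it was -0.34 (adjusted p = 0.107), and without Clusters 1+2 repeat A -0.36 (adjusted p = 0.1). The call was lost in 7 of 18 alternative settings, also with an offset of 10 (adjusted p = 0.0633), processed signals or deposited ratios (0.13), scaled spread (0.167) and the sample channel alone (0.127; limma). In Cluster 2 cells Sec24d had -0.07 and -0.16, against 0.12 and 0.04 in Hygro vector cells, lower on both arrays but not past the test (-0.19, adjusted p = 0.449, limma). With Cluster 1 the sign of Sec24d was not settled. It had 0.00 and 0.10 in Cluster 1 cells, against -0.16 and -0.13 in the Puro vector cells (0.19, adjusted p = 0.383, limma), and the sample channel alone gave -0.15 (adjusted p = 0.74, limma). In CDH1 cells it had -0.36 and 0.03, against 0.00 and 0.09 in their Puro vector cells, and the groups overlapped (-0.21, adjusted p = 0.252, limma). The effect of Clusters 1+2 minus that of Cluster 1 on Sec24d was -0.61 (adjusted p = 0.0181, limma), again across dye sets, with net signals of 43.1 to 85.7 in the Cluster 1 set.

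The other Sec24 genes did not pass the test against their own vectors. Sec24c had log2 ratios of -0.12 and -0.20 in Clusters 1+2 cells, against 0.00 and 0.09 in Hygro and Puro vector cells (-0.20, adjusted p = 0.0957, limma). Sec24b had 0.14 and 0.11 in Clusters 1+2 cells, against 0.30 and 0.20 in the vector cells (-0.12, adjusted p = 0.25, limma). Both genes were lower on both arrays. The Sec24a probes disagreed: A_52_P6451 gave -0.07 and A_52_P409711 gave 0.28 (adjusted p = 0.625 and 0.058 over probes, limma), and another Sec24a probe was left out as dim. Sec24a also differed between the Puro vector controls, with 0.78 and 0.80 in the Puro vector for Cluster 1 cells, against 0.52 and 0.40 in the Puro vector for CDH1 cells (0.33, adjusted p = 0.0211, limma), a comparison in which 10% of all genes passed. Those controls lay on slides 4 and 3, so slide and control cannot be told apart. Its ratios of 1.08 and 0.88 in Cluster 1 cells passed against the Puro vector on the other slide (0.52, adjusted p = 0.00149, limma; 8.6% of all genes passed there). Against their own they did not (0.19, adjusted p = 0.213, limma), except with scaled spread (0.35, adjusted p = 0.0465). In CDH1 cells Sec24a had 0.69 and 0.67, higher on both arrays than 0.52 and 0.40 in their Puro vector cells, but did not pass (0.21, adjusted p = 0.106, limma).

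Neither outer cage gene passed the test. Sec31a had log2 ratios of 0.36 and 0.36 in Clusters 1+2 cells, against 0.54 and 0.73 in Hygro and Puro vector cells, lower on both arrays. The difference was -0.27 (95% interval -0.48 to -0.06, adjusted p = 0.0627, limma), and with the repeat as a block it passed (adjusted p = 0.0419, limma). Without Hygro and Puro vectors repeat A it was -0.37 (adjusted p = 0.039, limma). In CDH1 cells Sec31a had 0.02 and -0.12, against 0.13 and 0.20 in their Puro vector cells, again lower on both arrays without passing (-0.22, adjusted p = 0.187, limma). Sec13, which also serves in the nuclear pore, had 0.59 and 0.65 in Clusters 1+2 cells, against 0.51 and 0.42 in the vector cells (0.16, adjusted p = 0.0931, limma). Both Clusters 1+2 arrays were the higher ones, and the second Sec13 probe gave 0.11 (adjusted p = 0.356, limma, over probes).

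The GTPase genes did not pass the test in any miRNA comparison. Sar1a had -0.09 and 0.05 in Clusters 1+2 cells, against 0.19 and 0.14 in Hygro and Puro vector cells (-0.18, adjusted p = 0.126, limma). The other Sar1a probe gave 0.07 in this comparison (adjusted p = 0.596, limma, over probes). Sar1b had 0.01 and 0.03 in Clusters 1+2 cells, against 0.10 and 0.06 in the vector cells (-0.06, adjusted p = 0.705, limma). In CDH1 cells Sar1a had 0.29 and 0.37, against 0.74 and 0.52 in their Puro vector cells, and both CDH1 arrays were the lower ones. The gene passed the test there (-0.30, 95% interval -0.47 to -0.13, adjusted p = 0.0226, limma). Its second probe, A_51_P202498, pointed the other way with 0.22 (adjusted p = 0.0996, limma, over probes), and the mean of both probes gave -0.04 (adjusted p = 0.833, limma). The call was also lost without Puro vector for CDH1 repeat A (-0.19, adjusted p = 0.18), without CDH1 repeat A (-0.26, adjusted p = 0.138) and without CDH1 repeat B (-0.34, adjusted p = 0.0587), so a change of Sar1a in CDH1 cells is not reported as settled.

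The remaining values of the coat genes, each from the brightest probe, were small. With Cluster 1, Cluster 2 and CDH1, the log2 differences of Sec24b and Sec24c lay between -0.08 and 0.09 (Sec24c had a value on 1 of the 2 Cluster 1 arrays). Those of Sec13 ran from 0.02 with Cluster 1 to 0.14 with CDH1, and those of Sar1b from -0.06 with Cluster 2 to 0.13 with CDH1. Sec24a differed by 0.13 with Cluster 2, Sec31a by 0.09 with Cluster 1 and 0.03 with Cluster 2, and Sar1a by 0.02 with Cluster 1 and -0.05 with Cluster 2. Some other kept probes lay outside these values. Sec24b's gave -0.19 with Cluster 1, Sec24a's 0.23 with Cluster 2, and Sec13's -0.08 with Cluster 2 and 0.22 with CDH1. None of these passed the test.

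**Figure D3:**
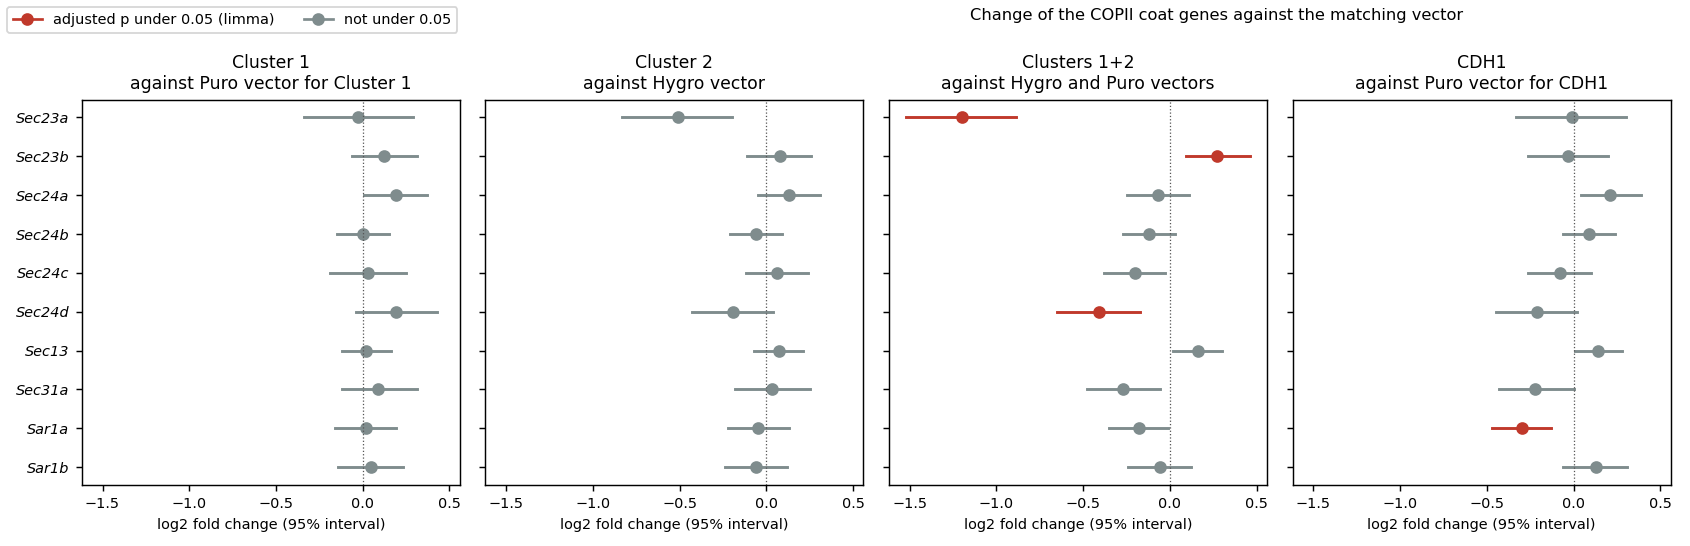
Log2 fold change of each COPII coat gene against the matching vector in the 4 comparisons, with 95% intervals from limma; red marks an adjusted p under 0.05. Sec23a with Clusters 1+2 lies at -1.20, apart from the other 9 genes, which lie between -0.41 and 0.27 in that comparison.

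**Figure D4:**
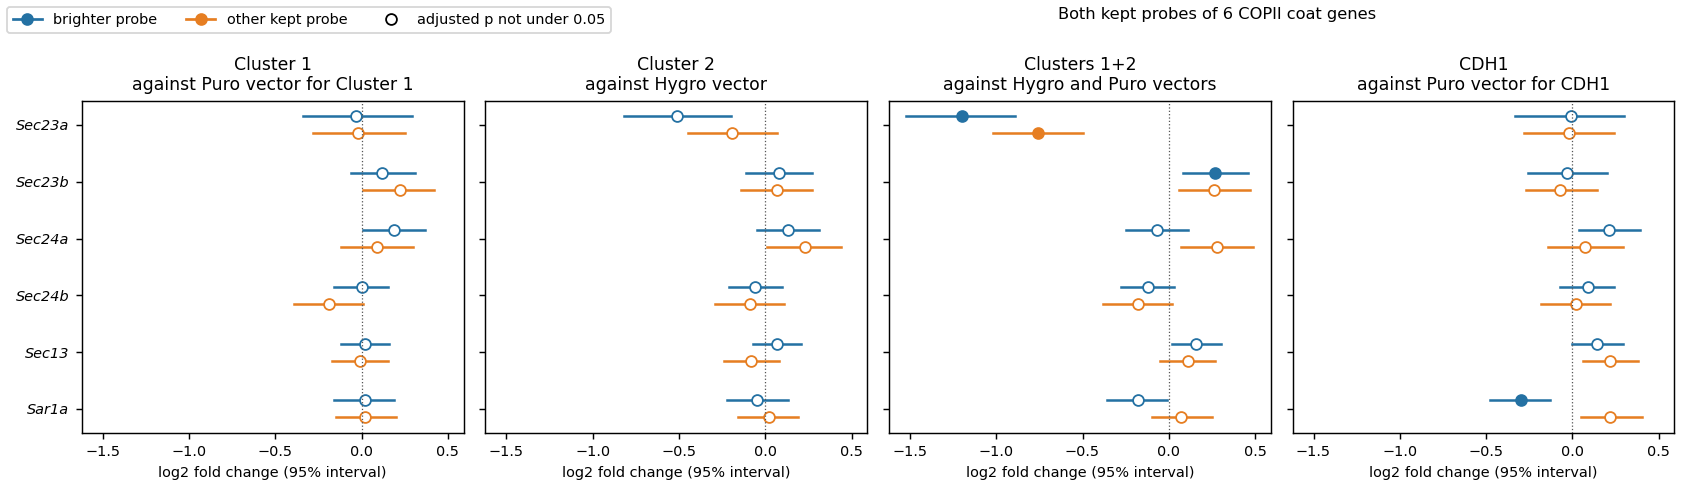
Log2 fold change with 95% interval for both kept probes of the 6 genes that have them, in the 4 comparisons; filled points passed an adjusted p under 0.05 over all probes. Both Sec23a probes were lower with Clusters 1+2 (-1.20 and -0.76), the dimmer of them kept only through the Hygro and Puro vector cells. The Sar1a probes pointed in opposite directions with CDH1 (-0.30 and 0.22).

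Counted together, 3 of the 10 members passed the test with Clusters 1+2, where 24.9% of all genes did; 1 was higher (12.1% of all genes) and 2 were lower (12.7%). The numbers were 0 of 10 with Cluster 1 (8.24% of all genes), 0 of 10 with Cluster 2 (2.85%) and 1 of 10 with CDH1 (14.5%), by limma. At an unadjusted p under 0.05, 1 of 10 members was below the threshold with Cluster 1 (Sec24a), where 19.4% of all genes were, and 1 of 10 with Cluster 2 (Sec23a), where 14.6% were. The share of members with Clusters 1+2 lies near that of all genes. With Clusters 1+2, fewer members passed without Hygro and Puro vectors repeat B or without Clusters 1+2 repeat A. Fewer of all genes passed there too. The median log2 change of the 10 was 0.036 with Cluster 1, -0.006 with Cluster 2, -0.152 with Clusters 1+2 and -0.021 with CDH1, beside 0.005, -0.002, 0.004 and 0.006 over all genes. With Clusters 1+2 the arrays of all 10 members lay apart from those of the vectors, where 57.8% of all genes with 4 values did so. Of the members, 2 were above (29.4% of all genes) and 8 below (28.4%). These counts use the brightest probe per gene. The other kept probes of Sar1a and Sec24a lay above instead (0.07 and 0.28). Those of Sec23a, Sec23b, Sec24b and Sec13 lay on the same side as the brightest probe. The numbers apart were 3 with Cluster 1 (51.2% of all genes), 7 with Cluster 2 (44.2%) and 7 with CDH1 (54.3%). With Cluster 1 and with CDH1, 1 member each (Sec24c and Sec23b) lacked a value on an array and was not counted.

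The ratio of Sec23a to its partners was lower within the arrays as well. The difference Sec23a minus partner was lower on both Clusters 1+2 arrays than on both Hygro and Puro vector arrays for 9 of 9 partners, by -0.79 (Sec24d) to -1.47 (Sec23b) on the log2 scale. With Cluster 2 it was lower than on both Hygro vector arrays for 9 of 9 as well, by -0.32 (Sec24d) to -0.64 (Sec24a). These 9 differences share the Sec23a values, and 2 arrays against 2 cannot go below an exact two-sided permutation p of 0.33, which each of them reached. With Cluster 1 it was lower on both arrays for 2 of the 8 partners with 4 values, and with CDH1 for 0 of 8.

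Among 7536 genes above background on all 16 arrays, the 5 whose log2 ratios, taken against the mean of their own vector arrays, followed Sec23a most closely were Rgs12 (Pearson r = 0.976), Tcf7l2 (0.968), Rin2 (0.966), Tia1 (0.965) and Irx1 (0.965). Rgs12 encodes a regulator of G protein signalling, Tcf7l2 a Wnt pathway transcription factor, Rin2 an exchange factor for Rab5, Tia1 an RNA-binding protein of stress granules and Irx1 a homeobox factor. Their log2 changes with Clusters 1+2 ran from -0.56 for Tia1 to -1.37 for Tcf7l2, and with Cluster 2 from -0.21 for Tia1 to -0.52 for Tcf7l2. With Cluster 1 and CDH1 they lay between -0.09 and 0.09. The 5 were chosen for their likeness to Sec23a on these same arrays, so this pattern follows from the choice. Of the coat genes, Sec24b (r = 0.651) and Sec24d (0.644) were the closest over 16 arrays, and Sec23b ran opposite (-0.79 over 12 arrays). These values describe 16 arrays that share slides and a reference, and the pair of Clusters 1+2 arrays weighs heavily in them.

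Other genes of transport out of the endoplasmic reticulum were read from 3 lists. The first holds 74 ER export genes, such as cargo receptors, p24 proteins, tethers and SNAREs, of which 69 were tested. With Clusters 1+2, 7 rose and 15 fell, and the list's median log2 change was -0.073. Creb3l2, a membrane-bound transcription factor that in cartilage drives Sec23a transcription, had log2 ratios of -1.46 and -1.38 in Clusters 1+2 cells, against -0.44 and -0.54 in Hygro and Puro vector cells. Its arrays did not overlap, and its log2 fold change of -0.93 (adjusted p = 5.72e-06, limma) was the largest fall on the list. The next falls were Trappc6b (-0.45) and Trappc2 (-0.44), both of the TRAPP tethering complex, and the cargo receptor Lman2 (-0.44). The largest rises were the p24 protein Tmed5 (0.60), the tether Uso1 (0.40), Klhl12 (0.37), the adaptor that directs ubiquitin to Sec31, and the receptor Lman2l (0.35).

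With Cluster 2, 3 of the 69 passed. There, 1 of the 69 rose, Lman1l (0.40, adjusted p = 0.0499, limma), a call lost in 14 of 17 alternative settings. Sec22a (-0.34) and Tfg (-0.39), which helps to order COPII vesicles at export sites, fell, and these calls were lost in 9 and 12 of 18. With Cluster 1, 10 rose and 0 fell, led by Trappc6a (0.51), Tmed3 (0.39), the cargo receptor Surf4 (0.37) and Vmp1 (0.36). The Vmp1 value was 0.06 as the mean over its probes (adjusted p = 0.766, limma) and 0.07 with the sample channel alone (adjusted p = 0.789), so its rise rests on the choice of probe and channel. Surf4 had log2 ratios of 0.41 and 0.42 in Cluster 1 cells, against 0.08 and 0.01 in their Puro vector cells. With CDH1, 12 rose and 12 fell. The largest fall was Mcfd2, the partner of the cargo receptor Lman1, at 0.51 and 0.50 in CDH1 cells, against 1.34 and 1.31 in their Puro vector cells (-0.82, adjusted p = 5.28e-06, limma). Tmed10 (-0.50), Trappc12 (-0.47) and Surf4 (-0.44) followed, while Ergic2 (0.56), Sec22c (0.53), Trappc2l (0.49) and Sec22a (0.46) rose most.

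These counts moved with the scaling. With median centring in place of loess, 3 list genes rose and 9 fell with Clusters 1+2, 13 rose and 0 fell with Cluster 2, 4 rose and 0 fell with Cluster 1, and 16 rose and 2 fell with CDH1. With that centring the median log2 change of all genes was 0.14 with Cluster 2 and 0.11 with CDH1. It called 18.7%, 12.1%, 5.96% and 20.1% of all genes in the same order of comparisons. Of its calls with Cluster 2, 93.4% were rises. With the sample channel alone, 2 list genes rose and 3 fell with Cluster 1, where 8.23% of all genes passed. Leaving out any 1 array of a comparison lowered the number of list genes called in each of the 4 comparisons. The share of all genes called fell too, except with Cluster 2 without Hygro vector repeat A or Cluster 2 repeat A. The Puro vector controls themselves differed in this list, with 4 genes higher and 10 lower in the Puro vector for Cluster 1 than in that for CDH1 (20.3% of the list, where 10% of all genes differed). The share of the list called was 14.5% with Cluster 1, 4.35% with Cluster 2, 31.9% with Clusters 1+2 and 34.8% with CDH1, beside the shares of all genes given above.

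Of 17 COPI coat genes, which serve the return route from the Golgi, 1 rose and 2 fell with Clusters 1+2: Copg2 (0.48), Copz2 (-0.53) and Gbf1 (-0.47), the exchange factor for Arf1. That is 17.6% of the list, where 24.9% of all genes passed. With Cluster 1, 1 rose, Copb1 (0.37), 5.88% of the list where 8.24% of all genes passed. With CDH1, 3 were called lower (17.6%, where 14.5% of all genes passed): Copa (-0.28), Copz1 (-0.24) and Arf3 (-0.44), whose call rests on 1 CDH1 array taken to vary like the arrays of the other groups. With Cluster 2, 0 of the 17 passed. Of 15 genes of the ER translocon and signal peptidase, 3 rose with Clusters 1+2 (20%, where 24.9% of all genes passed). Ssr1, a subunit of the translocon-associated complex, had 1.31 and 1.44 in Clusters 1+2 cells, against 0.65 and 0.56 in Hygro and Puro vector cells (0.77, adjusted p = 2.31e-05, limma). The signal peptidase subunits Spcs3 (0.53) and Spcs2 (0.29) rose with it. With CDH1, Spcs2 (-0.58), Ssr3 (-0.39) and Ssr2 (-0.29) fell and Sec11c (0.62) rose (26.7% of the list, where 14.5% of all genes passed). With Cluster 1, 2 were called higher (13.3%, where 8.24% of all genes passed): Sec61a1 (0.24) and Spcs2 (0.37), whose call rests on 1 Cluster 1 array under the same assumption. With Cluster 2, 0 of the 15 passed.

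Of the 39 calls named from these lists, 7 held in every alternative that gave a value: Creb3l2 and Ssr1 with Clusters 1+2, and Mcfd2, Ergic2, Sec22c, Spcs2 and Sec11c with CDH1. Another 11 were lost in 9 or more alternatives: Lman1l, Sec22a and Tfg with Cluster 2, Uso1, Lman2l, Copg2 and Spcs3 with Clusters 1+2, Copb1 and Sec61a1 with Cluster 1, and Copa and Copz1 with CDH1.

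**Figure D5:**
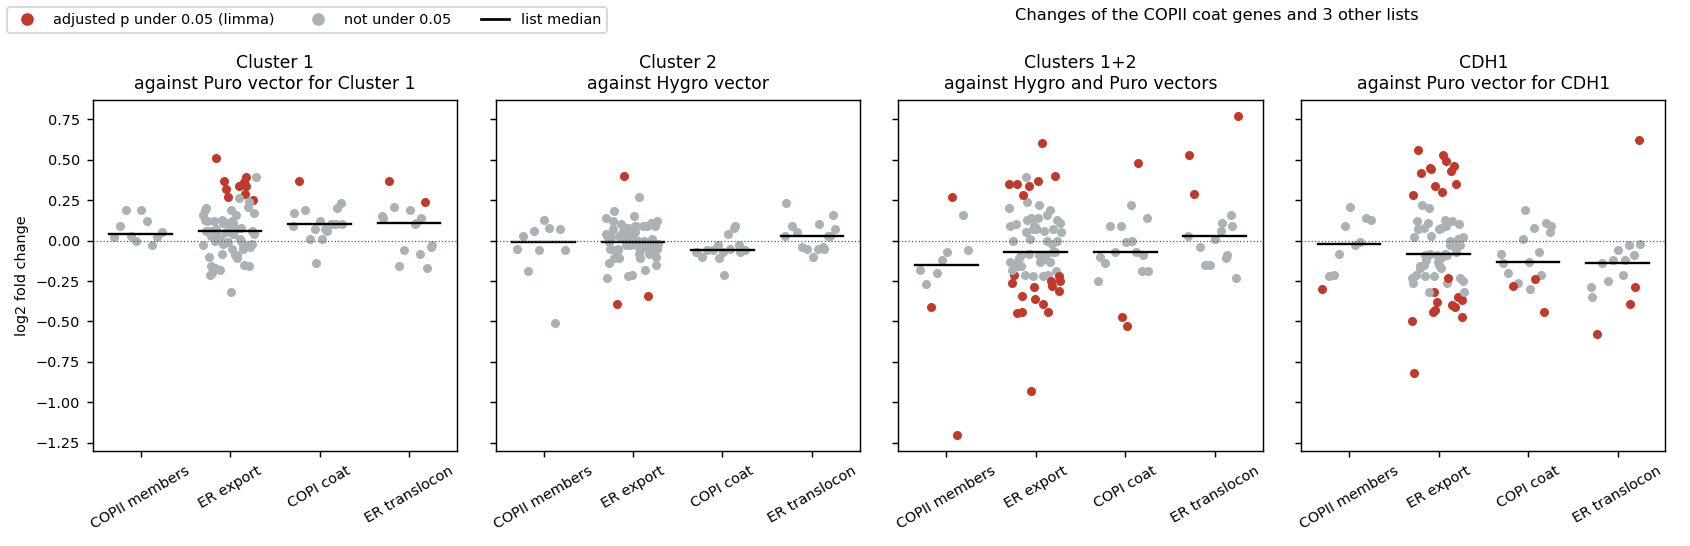
Log2 fold change of every tested gene of the COPII coat and of 3 other lists in the 4 comparisons; red points passed an adjusted p under 0.05 and the black line is the list's median. Sec23a at -1.20 and Creb3l2 at -0.93 are the lowest points with Clusters 1+2, and Mcfd2 at -0.82 is the lowest with CDH1.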

How the data were processed

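The deposited files are scanner output, with an intensity per channel for every spot and its local background. Per the file headers they were made with Feature Extraction 9.5.3.1 for Agilent design 014868, whose probe positions are in mm7. The scanner software's log10 ratio (red over green) was deposited too and not used. The authors also deposited processed intensities and, in the series matrix, a linear ratio per spot, which matched processed sample over reference (largest difference 8.06e-08 on the log10 scale; column medians 0.903 to 1.175), so its direction and scale were settled by this match.

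Outlier-marked spots (264 to 1493 per array) were removed, background was corrected by normexp with an offset of 50, and log2 ratios were normalised within arrays by loess (limma 3.58.1, R 4.3.3). Spots of a probe were averaged. Of 41174 probes, 27090 were kept: those whose sample signal stood well above background on every array of some group, and the brightest probe stood for a gene. One limma model with 8 group means over 16 arrays was fitted for 18993 genes. Adjusted p-values are Benjamini-Hochberg over all genes tested in a comparison, and "passed the test" means an adjusted p under 0.05. They set each difference against the spread between repeats, pooled over groups. The number of arrays limits the precision. The code was tested on simulated data. Alternatives changed the offset, outlier spots, normalisation, channel, probe filter, probe rule, block, weights and arrays.

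Repeats of a group correlated at 0.937 to 0.98 across genes. In the Cy3 groups the repeats A lay on slide 1 and the repeats B on slide 2 per the file headers. Deviations of same-lettered arrays correlated there at 0.24 to 0.423 over 6 pairs of groups. The main model ignored this pairing, and the repeat was a block only in the alternative fits named so. In the Cy5 sets the correlation was -0.0112 to 0.0122.

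The genes and lists were chosen with earlier results of these data known. Named were all 10 coat genes, per list and comparison up to 4 called genes with the largest rise and 4 with the largest fall, and the 5 genes most like Sec23a. Older probe names (Sec13l1, Sec31l1) were updated by accession or synonym.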

Additional observations from a re-analysis of the deposited data

Results flagged for a closer look

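The effect of Clusters 1+2 on Sec23a differed from that of Cluster 1 by -1.18 and from that of CDH1 by -1.19 on the log2 scale, and the effect on Sec24d differed from that of Cluster 1 by -0.61 (adjusted p = 0.00188, 0.00129 and 0.0181, limma). Under the alternative settings, chosen for these differences after the data were seen, the Sec23a difference from Cluster 1 kept its direction and passed in each, between -0.80 (sample channel alone) and -2.08 (processed signals). The Sec23a difference from CDH1 did so except with the processed signals or the deposited ratios (-1.72, adjusted p = 0.0625). The Sec24d difference was lost with the sample channel alone (-0.31, adjusted p = 0.593), with the processed signals (-0.70, adjusted p = 0.181), with median centring (-0.59, adjusted p = 0.0579) and without Clusters 1+2 repeat A (-0.55, adjusted p = 0.0687), among others. Sec23a and Sec24d had net sample signals of 11.7 to 41.1 and 43.1 to 85.7 in the Cluster 1 set, against 145 to 468 and 565 to 917 in the Cy3 groups; the part of this brightness in the differences was not tested, and dye, slide and overexpressed gene cannot be told apart between the sets. Groups of 2 arrays were too small for a check of single outlying arrays.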

How the results depend on the processing

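The fall of Sec23a with Clusters 1+2 kept its direction and passed in all alternatives that gave a value (-0.92 with scaled spread to -1.50 with processed signals; -1.30 to -1.11 leaving out 1 array; adjusted p = 1.31e-05 with the replicate block in the Cy3 groups). Sec23a has no value when a probe must be above background on all 16 arrays, since its probe is then dropped. With Cluster 2, Sec23a passed with the replicate block in the Cy3 groups (-0.51, adjusted p = 0.0422) or in all groups (0.00711) and not with median centring (-0.29, adjusted p = 0.143) or the comparison's own arrays (0.307), and leaving out 1 array gave -0.67 to -0.35. Its Clusters 1+2 minus Cluster 2 difference passed with median centring (-0.99), the mean over probes (-0.63) and both replicate blocks (-0.69), with -0.85 to -0.53 leaving out 1 array. With Cluster 1, the Sec23a sign turned when outlier spots were kept (0.01), with processed signals or deposited ratios (0.58) and with the other Puro vector as control (0.11), with -0.06 to 0.01 leaving out 1 array. With CDH1 it turned with processed signals or deposited ratios (0.22) and median centring (0.08), with -0.20 to 0.18 leaving out 1 array. Its Clusters 1+2 minus CDH1 difference was -1.72 (adjusted p = 0.0625) with processed signals or deposited ratios and -1.38 to -1 leaving out 1 array, and the one from Cluster 1 -1.28 to -1.08. The causes were not tested.

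With Clusters 1+2, the number of coat genes that passed was 1 with an offset of 10, processed signals, deposited ratios, scaled spread or the sample channel alone. It was 5 of 9 tested with probes above background on all 16 arrays (43.6% of all genes passed there). Leaving out 1 array lowered it for some arrays and raised it for none. With Cluster 1 it was 1 with scaled spread or the other Puro vector, and it did not change leaving out any array. With Cluster 2 it was 1 with median centring (higher) or either replicate block (lower). Of the single arrays left out, only Hygro vector repeat A changed it, upward. With CDH1 it was 0 with outlier spots kept, processed signals, deposited ratios, the mean over probes or the comparison's own arrays. It was 2 with median centring or the filter on all 16 arrays (of 9 tested there, with 36.5% of all genes passing). It fell without Puro vector repeat A or CDH1 repeat A. For ER export genes with Clusters 1+2 it was 13 with an offset of 10, 9 with outlier spots kept, 1 with processed signals or deposited ratios, 12 with median centring, 3 with scaled spread, 6 with the sample channel and 10 with the comparison's own arrays. Of all genes, 18%, 14.1%, 8.41%, 18.7%, 9.87%, 11.4% and 16.5% passed in these settings, in the same order. These shares also belong beside the coat gene counts with Clusters 1+2. With Cluster 1 the ER export count was 0 with outlier spots kept, 1 with processed signals or deposited ratios, 4 with median centring or the mean over probes, 5 with the sample channel, 6 with no filter and 16 with the filter on all 16 arrays. Of all genes, 1.03%, 3.04%, 5.96% (median centring), 6.24% (mean over probes), 8.23%, 3.97% and 25.2% passed in these settings. For the coat gene settings above, it was 9.68% with scaled spread and 8.6% with the other Puro vector. With Cluster 2 the ER export count was 1 with an offset of 10, outlier spots kept or no filter, 13 with median centring, and 0 with processed signals, deposited ratios, scaled spread, the sample channel or the comparison's own arrays. Of all genes, 1.39%, 0.417%, 1.43%, 12.1%, 0.48% (processed signals or deposited ratios), 0.385%, 0.76% and 0.317% passed in these settings. With the replicate block in the Cy3 groups it was 4.13%, and in all groups 3.24%. For the coat gene settings with CDH1, 6.67% of all genes passed with outlier spots kept and 11.5% with the mean over probes. It was 11.7% with the comparison's own arrays and 20.1% with median centring. The ER export count with CDH1 was 12 with processed signals or deposited ratios and 15 with the sample channel, where 8.47% and 14.5% of all genes passed. Leaving out 1 array gave 8 to 15, 2 to 5, 0 to 1 and 15 to 18 in the same order of comparisons.

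Over the other 9 coat genes, 605 of 646 values kept their call or their lack of a call, 29 lost a call and 12 gained one. Most of the 605 had no call to lose, and 24 of those changed sign. All 29 losses came from Sec23b (13 of 18 settings) and Sec24d (7 of 18) with Clusters 1+2 and Sar1a (9 of 18) with CDH1. Signals near background limit Sec23a and Sec24d in the Cluster 1 set, and 2 arrays per group limit every test.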
